A study of Mus musculus with 4 samples.

Results

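The vascular miRNAs miR-126, miR-143 and miR-145 were followed in small RNA libraries of the mouse cortex. All rows with one of these numbers after "miR-" were taken, with any letter and both arms of the hairpin, which gave 7 of the 942 mature miRNAs in the deposited table: miR-126-5p, miR-126-3p, miR-143-5p, miR-143-3p, miR-145a-5p, miR-145a-3p and miR-145b. The study sequenced the cortex of 4 mice of the B6C3 strain aged 9 months, 2 wild-type mice (WT1 and WT2) and 2 AD mice (APP3 and APP4). The AD mice carry the APPswe and PS1deltaE9 transgenes, which encode mutant human presenilin 1 and a chimeric amyloid precursor protein of mouse and human parts. Their expression is meant for neurons, so no vascular cell was the intended site. Each AD mouse has a WT sibling, by the paper's account, APP4 being paired with WT1 (group 1) and APP3 with WT2 (group 2). The sources used here do not mention perfusion of the vessels.

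miR-126 lies within Egfl7, a gene of endothelial cells, and is the miRNA best known as a marker of the endothelium, where it dampens inhibitors of VEGF signalling. miR-143 and miR-145 are processed from one primary transcript and are the miRNAs best known from vascular smooth muscle and pericytes, the mural cells that surround the endothelium, where they favour the contractile state. The comparison of miR-126 with miR-143 and miR-145 therefore sets the inner layer of the vessel wall against its outer layer. In a bulk library, fewer cells of a type and less of the miRNA per cell cannot be told apart.

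The sequence of miR-126 is shown because it stands for the endothelial side of the comparison and both of its arms were abundant. It is given from RefSeq on GRCm38.p6, 5′ to 3′. In the mature form the capitals mark the seed, bases 2 to 8, and in the hairpin they mark the mature 3p arm.
miR-126-3p: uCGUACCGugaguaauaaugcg
Mir126a hairpin: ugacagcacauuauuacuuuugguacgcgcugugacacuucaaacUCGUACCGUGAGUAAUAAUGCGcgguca
The hairpin Mir126a lies on the plus strand at chr2:26591357-26591429 and the mature 3p arm at chr2:26591402-26591423. In GENCODE vM21, Egfl7 spans chr2:26580014-26593120 on the same strand, and 9 of its transcripts span the hairpin. All but 1 of them have it in an intron, which lies between exons 7 (chr2:26590899-26591063) and 8 (chr2:26591664-26591728) in one of the coding transcripts, and the exception is classed as a retained intron. A second hairpin, Mir126b, is annotated on the opposite strand at chr2:26591363-26591420, and the table has no miR-126b row. Of the 763 miRNAs of the table that matched a mature RefSeq sequence, miR-126-3p was the 1 with this seed. Of the 7 members, miR-126-3p was the 1 matched. The miR-143 and miR-145a hairpins are 1301 bases apart in RefSeq, while the miR-145b hairpin lies 7.37 megabases from that of miR-143.

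The miRNA reads numbered between 19048747 in APP4 and 26085776 in WT1, and levels below are reads per 1000000 miRNA reads of the library (RPM). At this depth 3 reads correspond to between 0.115 and 0.157 RPM. The 3 neuronal miRNAs miR-9-5p, miR-128-3p and miR-124-3p had between 7183 and 36979 RPM in every library, as the labelled tissue would have. APP4 stood apart from the other libraries in the miR-200 family of epithelia, with 450 RPM of miR-429-3p against 23.5 to 28.5, and the edgeR fold changes of miR-126 and miR-143 are also given without this mouse.

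The 7 members together made up 3.14% of the miRNA reads in WT1 and 3.25% in WT2, against 3.01% in APP3 and 2.44% in APP4. miR-143-3p took most of them, 76.0% of the members' reads in WT1 and 74.8% in WT2 against 69.0% in APP3 and 68.0% in APP4. The order of the levels, from high to low, was miR-143-3p, miR-126-5p, miR-126-3p, miR-145a-5p, miR-145a-3p, miR-143-5p and miR-145b in WT1, WT2 and APP3. In APP4 the last 2 changed places, with 0.735 RPM of miR-143-5p and 0.787 of miR-145b, and their 95% Wilson intervals overlapped. Among the first 6 the ranges over the 4 libraries did not overlap. These are orders of reads, since the ligation of adapters is not equally efficient for all sequences.

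**Figure D1:**
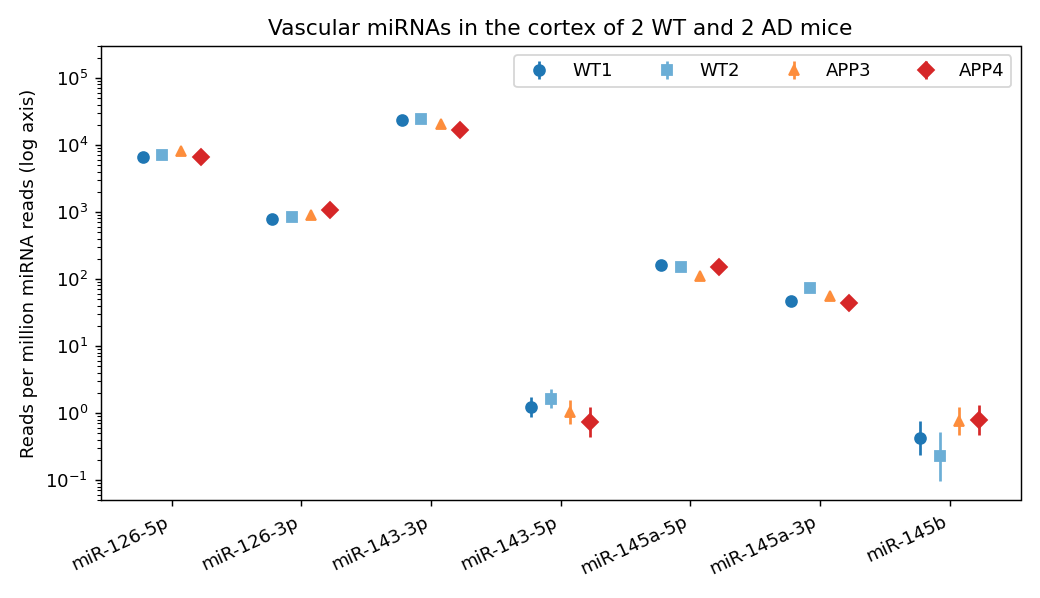
Level of each of the 7 miRNAs in each library, in reads per 1000000 miRNA reads on a log axis. Points are single libraries and bars are 95% Wilson intervals, which cover counting error only. miR-143-3p lies between 16628 and 24328 RPM and miR-145b under 1 RPM.

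miR-126-5p had 6525 RPM in WT1 and 7116 in WT2, against 8242 in APP3 and 6568 in APP4. APP3 was the highest, and APP4 lay just above WT1, so the genotypes overlapped. miR-126-3p, the arm usually taken as the guide strand, had 797 RPM in WT1 and 849 in WT2, against 893 in APP3 and 1058 in APP4. Both AD mice were above both WT mice, with a mean of 975 ± 117 RPM (SD, n = 2) against 823 ± 36.9 (SD, n = 2), and APP3 lay closer to WT2 than to APP4. The AD mean was at 118% of the WT mean, and at 108% without APP4. Summed over both arms, the miR-126 hairpin gave 7322 RPM in WT1 and 7965 in WT2, against 9135 in APP3 and 7626 in APP4, and the genotypes overlapped again.

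miR-143-3p was among the miRNAs with the most reads of the whole table, at rank 11 in WT1 and WT2, 12 in APP3 and 14 in APP4. Its level was 23901 RPM in WT1 and 24328 in WT2, against 20760 in APP3 and 16628 in APP4. Both AD mice were below both WT mice, and the AD mice differed from each other by more than the WT mice did. The WT mice had a mean of 24115 ± 302 RPM (SD, n = 2), and the AD mice one of 18694 ± 2922 RPM (SD, n = 2), which is 22.5% lower. Without APP4 it was 13.9% lower. miR-143-5p, the other arm, was counted 32 times in WT1 and 36 times in WT2, against 22 in APP3 and 14 in APP4, or 1.23, 1.63, 1.03 and 0.735 RPM. It was lower in both AD mice, on so few reads that the interval of each WT mouse overlapped that of each AD mouse.

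miR-145a-5p, the arm known from smooth muscle, had 164 RPM in WT1 and 152 in WT2, against 112 in APP3 and 150.1 in APP4. Both AD mice lay below both WT mice, but APP4 was within 2 RPM of WT2. miR-145a-3p had 46.6 RPM in WT1 and 72.8 in WT2, against 56.3 in APP3 and 44.0 in APP4, and the genotypes overlapped. miR-145b was counted 11 times in WT1 and 5 times in WT2, against 16 in APP3 and 15 in APP4. It is a separate hairpin and stayed between 0.226 and 0.787 RPM on these few reads.

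Over the 4 mice, the RPM of the AD mice lay all above or all below those of the WT mice for 5 of the 7 members, for 2 of them above (miR-126-3p and miR-145b) and for the others below (miR-143-3p, miR-143-5p and miR-145a-5p). Over all 623 miRNAs tested in edgeR this held for 36.0%. Neither count takes counting error into account. For miR-143-5p, miR-145a-5p and miR-145b, Wilson intervals of WT and AD mice overlapped, as those of WT2 and APP4 did for miR-145a-5p. Those of miR-143-3p and miR-126-3p did not overlap between the genotypes. The members were therefore not shown to be apart more often than other miRNAs. The members come from 4 hairpins and are not independent of each other. With TMM library sizes, which correct each total for its composition, 5 members were again apart, although the gap of miR-126-3p narrowed to 867 in WT1 against 891 in APP3.

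Over 623 miRNAs, the quasi-likelihood test of edgeR, with p adjusted by Benjamini-Hochberg, called none of the members between AD and WT mice. It called 0.0% of all miRNAs at an adjusted p under 0.05, while 36 had an unadjusted p under 0.05, and DESeq2 called 2 miRNAs, neither of them a member. The log2 fold change of miR-143-3p was -0.49 (SE 0.22, unadjusted p = 0.0574, edgeR adjusted p = 0.768), and -0.37 without TMM. With TMM kept, it was -0.74 without APP3 and -0.30 without APP4. Leaving out the mouse that stands apart thus brought it more than 1.5 times closer to 0. For miR-143-5p it was -0.80 (SE 0.37), for miR-145a-5p -0.42 (SE 0.22) and for miR-145a-3p -0.37 (SE 0.28). The arms of miR-126 had the smallest log2 fold changes, 0.11 (SE 0.18) for miR-126-3p and -0.01 (SE 0.21) for miR-126-5p. Without TMM these were 0.24 and 0.12, and the former was then close in size to miR-145a-3p, at -0.25. For miR-145b the log2 fold change was 1.07 (SE 0.51, edgeR adjusted p = 0.830). With one mouse left out in turn, the log2 fold change lay between -0.58 and -0.28 for miR-145a-5p, between -0.63 and -0.04 for miR-145a-3p and between 0.03 and 0.16 for miR-126-3p. It lay between 0.71 and 1.65 for miR-145b, between -1.14 and -0.54 for miR-143-5p and between -0.25 and 0.19 for miR-126-5p. Without APP4 it was -0.54 for miR-143-5p, 0.03 for miR-126-3p and 0.19 for miR-126-5p.

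The sibling pairs were compared on the reads with Fisher's exact test, which compares 2 libraries and not the genotypes, with the Benjamini-Hochberg FDR over all miRNAs. Calls needed an FDR below 0.05 together with a change of 1.5-fold or more. In group 1, APP4 against WT1, 0 of the 7 members were called, against 11.6% of the 899 miRNAs tested. The largest difference among the 5 members other than miR-143-5p and miR-145b, which had few reads, was that of miR-143-3p, with a log2 fold change of -0.52 (SE 0.003, counting error only), followed by miR-126-3p with 0.41 (SE 0.01). miR-126-5p had 0.01 (SE 0.01) and miR-145a-5p -0.13 (SE 0.03). TMM moved every log2 fold change of this pair by -0.25, after which miR-143-3p, at -0.78, passed the limit of 1.5-fold and miR-126-5p turned to -0.24. miR-145a-5p was then at -0.38 and miR-145a-3p at -0.34, while miR-126-3p, at 0.15, had the smallest difference of the 5.

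In group 2, APP3 against WT2, 1 of the 7 members was called, against 6.81% of the 896 miRNAs tested. It was miR-145b, with 16 reads against 5 (log2 fold change 1.64, SE 0.71, FDR 0.043), and it was no longer called under the Bonferroni correction. miR-145a-5p had a log2 fold change of -0.44 (SE 0.04) and miR-145a-3p of -0.37 (SE 0.06). miR-143-3p had -0.23 (SE 0.003), miR-126-5p 0.21 (SE 0.01) and miR-126-3p 0.07 (SE 0.01). miR-143-3p and miR-145a-5p were below the WT sibling in both pairs, at an FDR under 0.05 but by less than 1.5-fold. miR-145a-3p, at -0.08 (SE 0.06, FDR 0.366) in group 1, and miR-143-5p, at -0.71 (SE 0.46, FDR 0.259) in group 1 and -0.64 (SE 0.39, FDR 0.255) in group 2, did not pass the FDR there. No test compared the pairs with each other, since each has 1 mouse of each genotype.

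Mice of one genotype also differed. Leaving aside miR-143-5p and miR-145b, the WT mice differed by less than the AD mice, except in miR-145a-3p. Between WT2 and WT1, 1 of the 7 members was called, against 10.1% of the 879 miRNAs tested. It was miR-145a-3p, with a log2 fold change of 0.64 (SE 0.05) that fell to 0.54, under the limit, with TMM. miR-143-3p differed by only 0.03 between these mice, miR-126-3p by 0.09, miR-126-5p by 0.13 and miR-145a-5p by -0.11. Between APP4 and APP3, 0 of the 7 were called, against 8.05% of the 907 miRNAs tested. There miR-145a-5p differed by 0.42 (SE 0.04), miR-145a-3p by -0.35 (SE 0.06), miR-126-5p by -0.33 (SE 0.01) and miR-143-3p by -0.32 (SE 0.003). For miR-143-3p the difference between the AD mice was therefore larger than that within group 2.

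**Figure D2:**
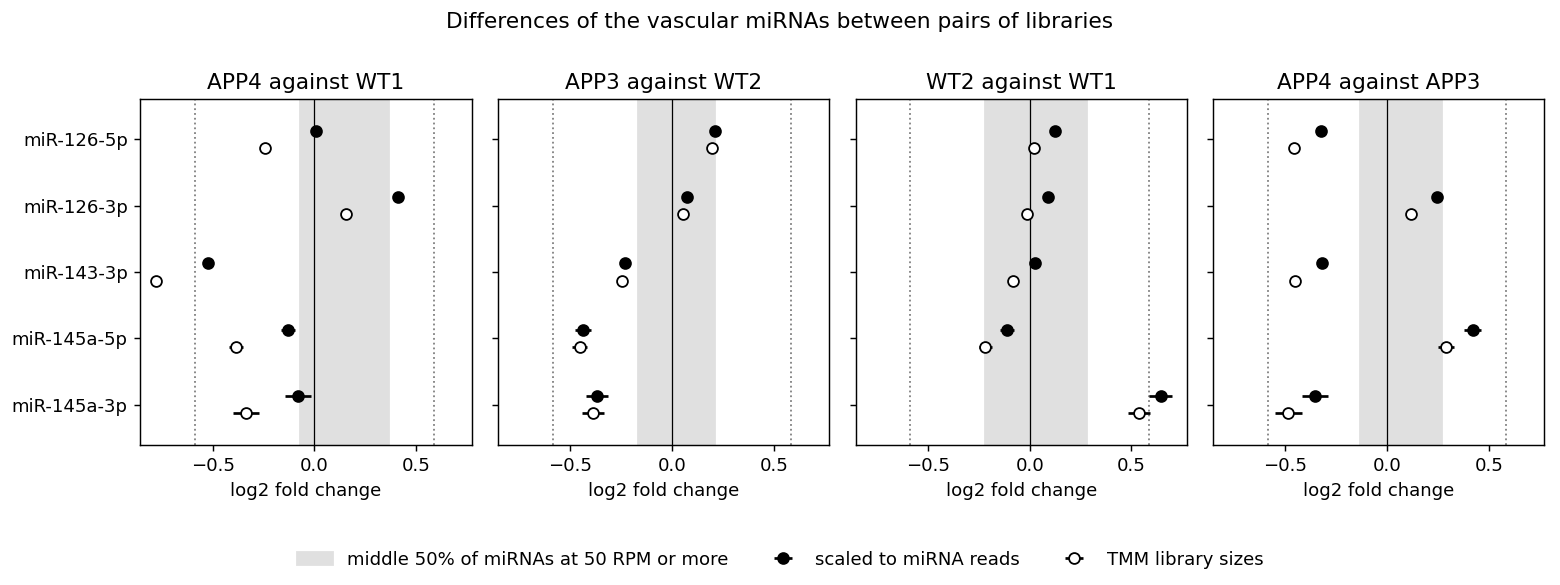
Log2 fold changes of the 5 members other than miR-143-5p and miR-145b, in both sibling pairs and both pairs of one genotype, scaled to the miRNA reads (filled) and with TMM library sizes (open). Bars are SEs from counting, the grey band is the middle 50% of the 252 miRNAs at a mean of 50 RPM or more, and dotted lines mark 1.5-fold. The band was drawn from values scaled to the miRNA reads and holds for the filled points only. miR-143-3p lies left of the band in both sibling pairs, at -0.52 and -0.23, and also between APP4 and APP3, at -0.32.

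A ratio of 2 miRNAs within a library does not depend on how libraries are scaled. There were 30.0 reads of miR-143-3p for each read of miR-126-3p in WT1 and 28.6 in WT2, against 23.3 in APP3 and 15.7 in APP4. On the log2 scale the ratio of miR-126-3p to miR-143-3p averaged -4.87 ± 0.05 (SD, n = 2) over the WT mice, and -4.26 ± 0.40 (SD, n = 2) over the AD mice. The difference of 0.62 toward the endothelial miRNA was made up of 0.93 in group 1 and 0.30 in group 2, and it was 0.33 without APP4. An exact two-sided permutation test gave p = 0.333, the smallest value that 2 against 2 mice allow.

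The ratio of the other arm, miR-126-5p, to miR-143-3p, added after the counts had been seen, was 0.273 in WT1 and 0.292 in WT2, against 0.397 in APP3 and 0.395 in APP4. Here the AD mice were nearly equal, and on the log2 scale the genotypes differed by 0.49, with 0.53 in group 1 and 0.44 in group 2 (exact permutation p = 0.333). Such a separation was not rare. Of the 31626 pairs among the 252 miRNAs at 50 RPM or more, 34.3% had ratios in the AD mice all above or all below those in the WT mice. The median size of the log2 difference over these pairs was 0.23, and 16.0% of them exceeded that of miR-126-3p to miR-143-3p and 22.0% that of miR-126-5p to miR-143-3p.

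The 5p arm held most of the reads of the miR-126 hairpin, with 89.1% in WT1 and 89.3% in WT2, against 90.2% in APP3 and 86.1% in APP4. The 95% Wilson intervals reached from 89.0% to 89.3% in WT1, from 89.2% to 89.5% in WT2, from 90.1% to 90.4% in APP3 and from 85.9% to 86.3% in APP4. APP4 was the lowest and APP3 the highest, so the AD mice lay on both sides of the WT mice. The log2 ratio of the arms was lower in AD mice by 0.13 on average, a difference that turned to 0.16 higher without APP4 (exact permutation p = 1.0 with all 4 mice). Of the 101 hairpins with both arms at a mean of 10 RPM or more, 52 had more reads on the 5p arm, and for 23.8% the arm ratios of the AD mice lay all above or all below those of the WT mice. The SD of the arm ratio over the 4 libraries was 0.25 for miR-126 on the log2 scale, near the median of 0.27, and 41 hairpins had a smaller one.

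miR-143 was at the other extreme of arm use, with between 14716 and 21844 reads of the 3p arm for each read of the 5p arm, with 0.5 read added to each. The log2 ratio of 5p to 3p was 0.30 lower in the AD mice, and both AD values lay below both WT values, but APP3 and WT1 differed by less than their counting error. Its exact permutation p was 0.333, and with 5 reads added in place of 0.5 the difference was -0.15. For miR-145a the 3p arm took 22.1% of the reads in WT1 and 22.7% in APP4, the siblings of group 1, against 32.4% in WT2 and 33.4% in APP3, those of group 2. The shares of siblings were closer to each other than those of mice of one genotype. Of the reads left by the authors' filters, 83.4% were miRNA reads in WT1 and 83.4% in APP4, against 88.7% in WT2 and 87.6% in APP3. Being siblings and this difference between the libraries cannot be told apart. The SD of this arm ratio was 0.44, and 89 of the 101 hairpins had a smaller one.

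Although miR-143 and miR-145a come from one transcript, their reads did not keep one ratio. There were 146 reads of miR-143-3p for each read of miR-145a-5p in WT1 and 160.1 in WT2, against 185 in APP3 and 111 in APP4. The AD mice lay on opposite sides of the WT mice, and the log2 ratio of miR-145a-5p to miR-143-3p differed by 0.09 between the genotypes (exact permutation p = 1.0).

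**Figure D3:**
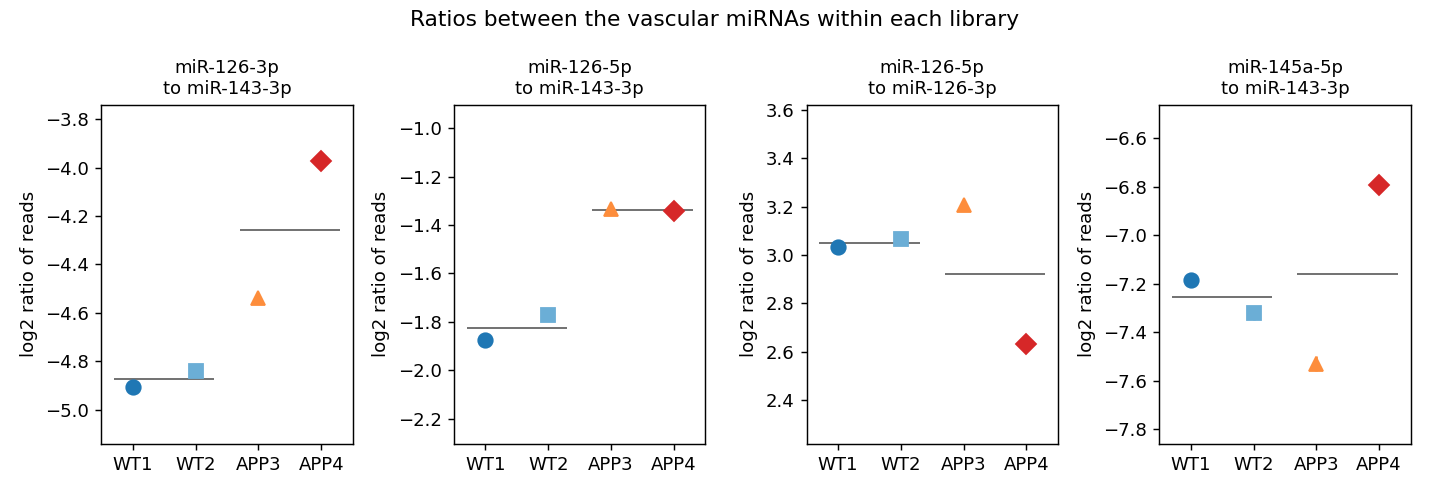
Log2 ratios of reads between members in each library, with SEs from counting, mostly smaller than the points, and the mean of each genotype as a line. The panels span the same range. The ratios of both miR-126 arms to miR-143-3p are higher in both AD mice, while the ratio of the miR-126 arms and that of miR-145a-5p to miR-143-3p place APP3 and APP4 on opposite sides of the WT mice.

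The miRNAs whose levels ran most alike over the 4 libraries were named by the root mean square distance of centred log2 levels among the 251 other miRNAs at 50 RPM or more. For miR-126-3p these were miR-218-5p, with a distance of 0.03, miR-872-5p with 0.04, and miR-370-3p, miR-136-3p and miR-485-5p with 0.05, against a median of 0.18 over all. miR-218-5p had 1949 RPM in WT1 and 2182 in WT2, against 2253 in APP3 and 2665 in APP4, the same order as miR-126-3p. For miR-143-3p the nearest were miR-3107-5p and miR-486-5p, both at 0.08, miR-191-5p and miR-488-5p at 0.11 and miR-204-5p at 0.12, against a median of 0.32. miR-486-5p, known from red blood cells, had 3900 RPM in WT1 and 4417 in WT2, against 3881 in APP3 and 3053 in APP4. miR-3107-5p, with 3877 RPM in WT1 and 3027 in APP4, ran within 1% of miR-486-5p in every library. The sequences of these miRNAs were not compared here, so they were not shown to be separate matches. miR-204-5p, known from the choroid plexus, had 3484, 4370, 3472 and 2900 RPM in the same order. With 4 libraries, such likeness is a description only.

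Lists of miRNAs linked to other cells of the vessel and the brain were set beside the members. Of 12 other miRNAs linked to endothelial cells, 0 were called higher in either sibling pair, and 1 was called lower, miR-10b-5p in group 1. The shares called over all miRNAs tested were 11.6% in group 1 and 6.81% in group 2. The list had a median log2 fold change of 0.05 in group 1 and -0.12 in group 2, against 0.21 and 0.05 over all miRNAs tested. Its most abundant member, miR-27b-3p, an angiogenic miRNA, had 27212 RPM in WT1 and 26097 in WT2, against 26186 in APP3 and 25560 in APP4, and the summed list lay between 32167 and 33772 RPM. The genotypes overlapped for miR-221-3p, with 1616 to 2293 RPM, and miR-222-3p, with 681 to 910. miR-24-3p had 1662 and 2011 RPM in the WT mice and 1496 and 1634 in the AD mice, so both AD mice lay below both WT mice. The same held for miR-503-5p, on few reads, with 0.383 and 0.408 RPM against 0.188 and 0.210. miR-210-3p went the other way, with 46.2 and 45.2 RPM in the WT mice and 57.9 and 68.1 in the AD mice. miR-503-5p and miR-210-3p were picked here after their values were seen, and neither was called in either pair. miR-10b-5p had 481 RPM in WT1, against 224 in WT2 and, in the AD mice, 226 in APP3 and 157 in APP4, so WT1 stood apart from the other 3 libraries.

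Of 9 miRNAs linked to mesenchymal and mural cells, 1 was called higher in group 1, miR-214-3p at 0.920 RPM in WT1 and 1.78 in APP4, and 0 in group 2. Of all miRNAs tested, 11.6% were called in group 1 and 6.81% in group 2. The median log2 fold change of the list was 0.25 and 0.16, against 0.21 and 0.05 over all miRNAs tested. Most of the reads of this list were of miR-22-3p, which muscle and many other cells express, with 34041 RPM in WT1 and 38743 in WT2, against 45820 in APP3 and 49942 in APP4. Its levels were above the WT levels in both AD mice, where those of miR-143-3p were below. Of the next members by level, miR-21a-5p, a miRNA of fibroblasts and many other cells, had 2027, 1610, 1716 and 1952 RPM in the same order, with overlapping genotypes. miR-140-3p had 633, 515, 644 and 650 RPM, with WT1 just below both AD mice. miR-199a-3p, a marker of mesenchymal cells, had 41.2, 40.9, 45.8 and 47.0 RPM. As for miR-22-3p, both AD mice lay above both WT mice for miR-140-3p, miR-199a-3p, miR-199a-5p and miR-214-3p. miR-199a-5p, picked after its values were seen, had 6.71, 7.16, 7.76 and 8.45 RPM. The genotypes overlapped for the rest of the list. Over all miRNAs tested in edgeR, the AD mice lay all above or all below the WT mice for 36.0%.

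Blood within the vessels was followed with 4 erythroid miRNAs and 5 of leukocytes and platelets. In group 1, 3 erythroid miRNAs were called higher in APP4, miR-451a, miR-144-5p and miR-144-3p, while 0 of 4 were called in group 2, against 11.6% and 6.81% of all miRNAs. The medians of the list were 0.91 and -0.25, against 0.21 and 0.05 over all miRNAs tested. The same 3 were called higher in WT2 than in WT1. WT1 had the lowest levels, with 91.4 RPM of miR-451a against 146 in APP4, 159 in APP3 and 199.9 in WT2. miR-486-5p made up nearly all of the summed erythroid level, which was 4001 RPM in WT1 and 4642 in WT2, against 4060 in APP3 and 3223 in APP4. It was lowest in APP4, as was miR-143-3p. Of the leukocyte list, 2 were called higher in group 1, miR-142-5p and miR-142-3p, and 1 in group 2, miR-142-3p, with medians of 0.40 and 0.28. Its summed level was 438 RPM in WT1 and 559 in WT2, against 679 in APP3 and 597 in APP4. The part of blood in the levels of miR-126 and miR-143 was not tested.

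Of 9 miRNAs of epithelia and the choroid plexus, 6 were called higher in APP4 than in WT1, namely miR-211-5p and the miR-200 family members miR-200a-3p, miR-200b-3p, miR-200c-3p, miR-141-3p and miR-429-3p. In group 2, miR-211-5p was called higher and 3 of the miR-200 family lower, miR-200a-3p, miR-200b-3p and miR-141-3p. The median log2 fold change of this list was 3.20 in group 1 and -0.33 in group 2. The neuronal list had 1 miRNA of 5, miR-138-5p, called higher in both pairs, with medians of 0.27 and -0.14. Of the oligodendrocyte list 0 of 2 were called in either pair, with medians of 0.31 and -0.05. Among all miRNAs tested, 11.6% were called in group 1 and 6.81% in group 2, with medians of 0.21 and 0.05. In edgeR, 0 members of any of these lists had an adjusted p under 0.05.

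**Figure D4:**
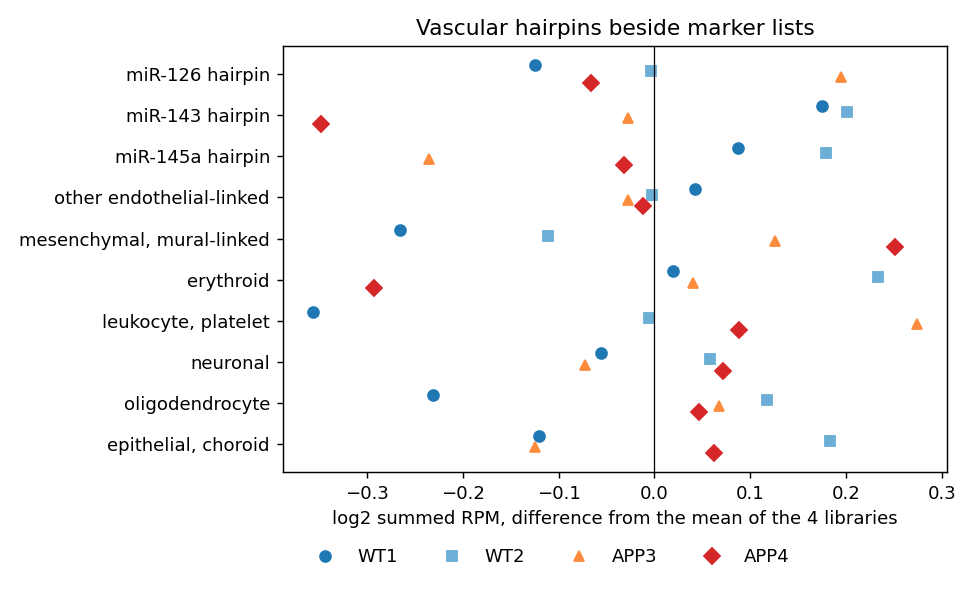
Summed level of each vascular hairpin and of each marker list in each library, as the log2 difference from the mean of the 4 libraries. The miR-143 hairpin is higher in both WT mice and lowest in APP4. The endothelial-linked sum, mostly miR-27b-3p, varies least. The erythroid sum, which follows miR-486-5p, is also lowest in APP4, but miR-451a, miR-144-5p and miR-144-3p of that list were lowest in WT1.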

How the data were processed

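Small RNA of the cortex of 4 mice was sequenced, with 2 mice per genotype as the labels give them. The authors removed adapters and low-quality reads, kept lengths of 18 to 35 nt, matched the tags to the mature miRNAs of miRBase 19 and counted them, length and mismatch variants included. Counts were deposited by the authors without normalization, beside RPM of the clean reads (named TPM), which were used here only to obtain the clean reads per library (22851004 to 31265701). The labels name Trizol and the build mm9, the paper miRNeasy and GRCm38. The table holds no coordinates.

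Counts were scaled to the miRNA reads of each library. Fisher's exact test (scipy 1.17.1, two-sided, log2 fold changes with 0.5 read added) compared pairs of libraries, and edgeR 4.0.16 (filterByExpr, TMM, quasi-likelihood) the genotypes over all miRNAs, with all 7 members passing the filter. The SE was the log2 fold change over the square root of F. P-values over the mice measure only the spread between these samples. No 2 libraries agreed within sampling noise (chi-square per degree of freedom at least 634). Intervals and floors cover counting error only. The Fisher test and its limits follow the paper's methods, and both tests were tested on simulated data. For edgeR the simulated counts had less spread than these mice and larger changes than the members. How the test performs at the members' differences was therefore not shown. The alternatives were TMM, clean reads, values scaled to 1000000 and rounded, a minimum of 10 RPM, Bonferroni, 2-fold, 5 reads added, the sibling block, DESeq2 1.42.0, DESeq2's size factors, no TMM, no filter and each mouse left out. Named were the members, the 5 nearest miRNAs of miR-126-3p and miR-143-3p, and up to 4 abundant members of each list with those called. miR-210-3p, miR-503-5p and miR-199a-5p were named outside this rule. The members and lists were chosen with earlier results of these data known.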

Additional observations from a re-analysis of the deposited data

Results flagged for a closer look

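For the arms of miR-126 the siblings of group 1 and of group 2 differed in opposite directions. The log2 ratio of miR-126-5p to miR-126-3p was lower in APP4 than in WT1, with a difference of -0.40, and higher in APP3 than in WT2, with 0.14. The log2 ratio of miR-145a-5p to miR-143-3p also went opposite ways, with 0.39 in group 1 and -0.21 in group 2. Each difference was more than 2 counting SEs from 0. Group 1 and group 2 were not tested against each other, as each holds 1 mouse of each genotype.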

How the results depend on the processing

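With 2 mice per genotype, only large and even differences can pass the test over the 4 mice. The numbers of miRNAs called in APP4 against WT1, APP3 against WT2, WT2 against WT1 and APP4 against APP3 were 104, 61, 89 and 73. They were 30, 22, 20 and 23 for values scaled to 1000000 and rounded, 53, 30, 40 and 40 with at least 10 RPM, 65, 34, 51 and 47 with Bonferroni, and 50, 23, 38 and 38 at 2-fold. With TMM, 39 miRNAs were higher and 46 lower in APP4 against WT1, in place of 87 and 17, 40 and 37 in WT2 against WT1, in place of 67 and 22, and 29 and 42 in APP4 against APP3, in place of 46 and 27. Over the 4 mice edgeR called 0 miRNAs, and 2 with the siblings as a replicate block, 2 in DESeq2 and 0 to 21 with one mouse left out, 3 without WT1, 21 without APP3 and 5 without APP4. None of them was a member. Siblings deviated from their genotype means together, with r = 0.24 across 252 miRNAs, which are not independent replicates. The sibling pairs also differed in the miRNA share of the clean reads, which cannot be told apart from being siblings.

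Of 251 values of the members under the alternatives, 234 kept their direction and whether they were called. Calls were by the FDR and the fold limit together between pairs of libraries, and by the adjusted p alone over the 4 mice. Between pairs of libraries, rounding, the minimum of 10 RPM, Bonferroni and 2-fold leave the log2 fold change as it was, so its direction could not change there. Few members were called to begin with, so few calls could be lost. The FDR alone crossed 0.05 in some of the 234 values, such as miR-145a-5p in APP4 against WT1 with Bonferroni. miR-126-5p turned in APP4 against WT1 to -0.24 with TMM, and over the 4 mice, from -0.01, to 0.12 without TMM, 0.012 with DESeq2 or its size factors, 0.021 without a filter, and to between -0.25 and 0.19 with one mouse left out. Between WT2 and WT1, TMM turned miR-143-3p to -0.080 and miR-126-3p to -0.014, and between APP4 and APP3 it turned miR-145b to -0.062, and clean reads to -0.0026. The log2 ratio difference of miR-126-3p to miR-143-3p lay between 0.33 and 0.90 with one mouse left out, that of the miR-126 arms between -0.42 and 0.16, and that of the miR-143 arms between -0.49 and -0.11. The causes were not tested.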
